A study of Cyprinus carpio with 9 samples.

Results

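In liver libraries of common carp (Cyprinus carpio), a small set of transcripts was higher in every earthworm-fed library than in any duckweed-fed one. By the rule below, this set held 17 of the 42997 gene IDs measured. The genes were chosen from the measured values themselves. Each had a lowest value over the 3 earthworm libraries of 2 or more scaled FPKM and of at least 2 times the highest value over the 3 duckweed libraries, and genes among the 100 most abundant were left out. FPKM is a read count divided by gene length and by library depth, and scaled FPKM is that value brought to a common library median. Because these 6 libraries chose the genes, their earthworm-duckweed differences are given below as a description, with no test. The mixed-diet libraries had no part in the fold or the floor, but mixed 1 and mixed 2 entered the scaling and the ranking by abundance.

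The study compared adult carp of 492.6 ± 30 g on 3 diets. One group of fish ate earthworm, an animal food; one ate earthworm with duckweed at 1:1, called the mixed diet here; and one ate duckweed, a small floating plant. Each diet was given to 90 fish in 3 repetitions, food was withheld for 24 h before livers were taken under MS-222 anaesthesia, and each diet has 3 liver libraries, although the series text speaks of duplicates. The labels name no strain, sex or exact age, and do not say whether a library holds 1 fish or several, so the spread between libraries may in part be technical.

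The liver is the main site where absorbed amino acids, fats and sugars are turned over, and its transcript levels for enzymes of protein breakdown, fat synthesis and glucose production are known to respond to the make-up of the diet. Common carp is an omnivore without a stomach. Its exocrine pancreas is spread through the liver, so a piece of carp liver normally carries pancreatic tissue as well. Its genome also went through a duplication, which left many genes in near-identical pairs whose reads counting may split between copies. No names accompany the gene IDs in the files, and none could be taken from the carp reference table, where 0 of the 42997 IDs occur. The genes are therefore described by ID and level, with no function, and neither the liver label nor a pancreatic share could be checked against markers.

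Totals ran from 9915585 to 11883466 reads per library. The library labelled mixed 3 was left out of the choice and of all values below unless named, as it lay outside the range of the other 8 in most tested genes. Among the other libraries, duckweed 2 shared part of what was particular to duckweed 3. For 108 genes at 2 or more scaled FPKM in duckweed 3 and at least 4 times above the 6 remaining libraries, duckweed 2 reached a median of 0.303 of the duckweed 3 level. In the other direction, for 20 genes particular to duckweed 2 in the same way, duckweed 3 reached a median of 0.426 of the duckweed 2 level. For 82 genes particular to earthworm 1, the median reached in earthworm 2 was 0.223. For 46 genes particular to earthworm 2, the median reached in earthworm 1 was 0.220. Such sharing also crossed diets, as for 19 genes particular to duckweed 2, earthworm 1 reached a median of 0.221 of the duckweed 2 level. The medians listed are the largest over all pairs of the 8 libraries in either direction, and the others lay between 0 and 0.160. Whether libraries of a diet are fully independent was not tested, and results without each library are given.

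The 17 genes were 0.0846% of the 20105 genes with 1 FPKM or more in at least 3 of the 8 libraries. The mirrored rule, with duckweed above earthworm, took 25 genes, or 0.124%. Both counts follow from the rule. Just inside it, the 3 smallest ratios of lowest earthworm to highest duckweed value were 2.01, 2.06 and 2.07, and just outside it the 3 largest were 1.995, 1.97 and 1.95. The 3 lowest earthworm minima inside the floor were 2.14, 2.18 and 2.23 scaled FPKM, and genes with a ratio of 2 or more just under the floor were at 1.80, 1.63 and 1.55. Of the 17, 13 had a ratio under 3. All 17 passed the filter for testing, which their earthworm values alone were enough to secure.

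**Figure D1:**
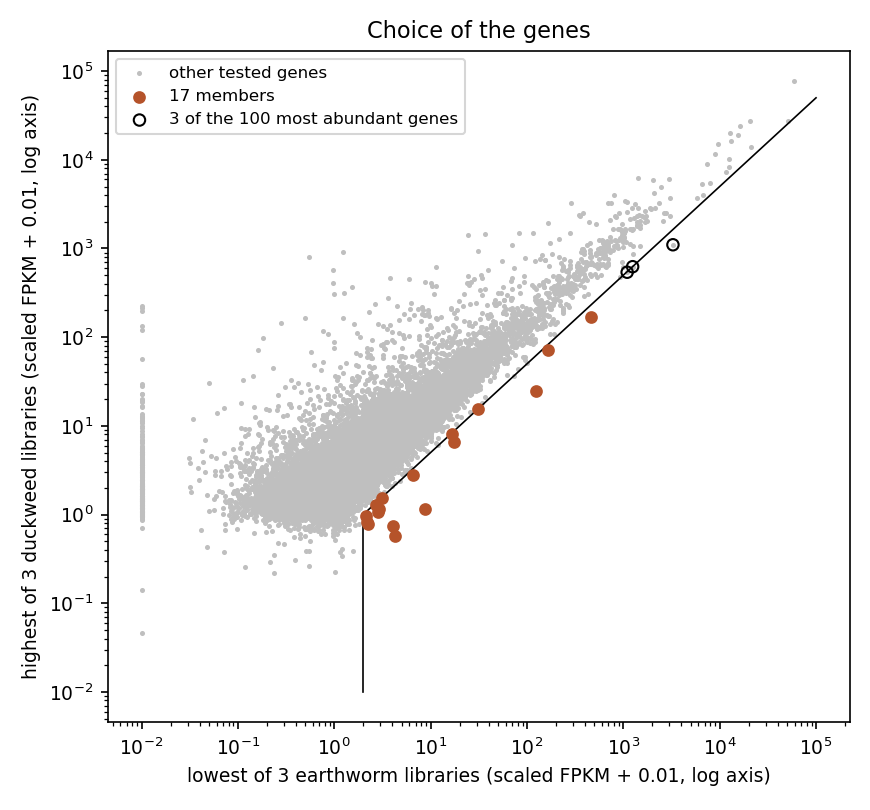
Each point is 1 of the 20105 tested genes, with its lowest earthworm value on the x axis and its highest duckweed value on the y axis, both as scaled FPKM + 0.01 on log axes. The 17 genes lie right of and below the black lines of the rule, most of them close to the line, and the 3 open circles are genes that met the fold and the floor but are among the 100 most abundant.

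Levels spanned a wide range. Earthworm means ran from 2.61 to 541 scaled FPKM, with 3 genes over 100, and 10 genes under 10. By mean FPKM over the 8 libraries the genes ranked between 262 and 16922.

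The most abundant was CAFS_CommonC_G_073614. It stood at 581, 466 and 576 scaled FPKM in earthworm livers, at 531 and 291 in mixed-diet livers and at 171, 101 and 123 in duckweed livers. The earthworm libraries were close to each other, mixed 1 lay among them, and mixed 2 fell in the gap above duckweed. Its means were 541 ± 65.0 on earthworm and 132 ± 35.8 on duckweed (SD, n = 3 each), a ratio of 4.11. CAFS_CommonC_G_001218 stood at 484, 261 and 125 scaled FPKM in earthworm livers, at 168 and 68.2 in mixed-diet livers and at 24.96, 15.4 and 13.2 in duckweed livers. It varied most among the earthworm libraries, 3.87-fold between earthworm 1 and earthworm 3, yet its lowest earthworm value was 5.02 times the highest duckweed value. The third gene over 100, CAFS_CommonC_G_086167, was at 253, 179 and 165 scaled FPKM in earthworm livers, at 239 and 98.4 in mixed-diet livers and at 49.7, 72.2 and 34.1 in duckweed livers. Mixed 1 was again within the earthworm range and mixed 2 below it.

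These are differences in whole liver RNA, where fewer cells of a type and less RNA per cell cannot be told apart.

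Between 10 and 100 scaled FPKM on earthworm there were 4 genes. CAFS_CommonC_G_050588 was at 37.6, 56.8 and 31.1 scaled FPKM in earthworm livers, at 29.7 and 19.6 in mixed-diet livers and at 15.4, 11.2 and 13.2 in duckweed livers, the narrowest gap of the set. CAFS_CommonC_G_073181 was at 17.4, 19.9 and 21.9 scaled FPKM in earthworm livers, at 10.2 and 8.77 in mixed-diet livers and at 5.94, 6.48 and 3.88 in duckweed livers. In both genes the mixed libraries lay in the gap between the single diets. CAFS_CommonC_G_015815 was at 17.9, 16.8 and 21.0 scaled FPKM in earthworm livers, at 12.7 and 5.11 in mixed-diet livers and at 7.29, 8.17 and 2.56 in duckweed livers, so mixed 2 fell inside the duckweed range.

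CAFS_CommonC_G_045358 had the largest ratio of lowest earthworm to highest duckweed value, 7.72. It was at 8.83, 9.63 and 33.3 scaled FPKM in earthworm livers, at 0.588 and 0.361 in mixed-diet livers and at 1.14, 1.07 and 0 in duckweed livers. Earthworm 3 stood far above the other earthworm libraries. The earthworm values rest on 34, 51 and 211 reads, the mixed values on 3 and 2 and the duckweed values on 8, 7 and 0. A count of 0 in duckweed 3 allows up to 0.269 CPM (reads brought to a common library total), from a limit of 3 reads, which covers counting error only.

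The second largest ratio, 7.61, belonged to CAFS_CommonC_G_074609. Its earthworm libraries were at 9.43, 10.1 and 4.28 scaled FPKM, its mixed libraries at 0 and 8.04, and its duckweed libraries at 0, 0.562 and 0.323. The 2 mixed libraries took opposite ends, mixed 1 with no read and mixed 2 with 97. CAFS_CommonC_G_090851 showed the same split less sharply, with 4.13, 4.77 and 4.05 scaled FPKM in earthworm livers, 1.01 and 6.32 in mixed-diet livers and 0.735, 0.714 and 0.410 in duckweed livers.

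The other 8 genes had earthworm means between 2.61 and 7.32 scaled FPKM. CAFS_CommonC_G_004686 was at 8.23, 7.15 and 6.57 scaled FPKM in earthworm livers, at 3.28 and 3.88 in mixed-diet livers and at 2.12, 1.84 and 2.78 in duckweed livers. CAFS_CommonC_G_042586 was at 3.28, 2.82 and 3.02 in earthworm livers, at 2.33 and 1.66 in mixed-diet livers and at 0.602, 1.05 and 0.471 in duckweed livers. In both, the mixed libraries lay between the single diets.

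CAFS_CommonC_G_011232 was at 3.15, 3.82 and 3.31 scaled FPKM in earthworm livers, at 6.57 and 2.46 in mixed-diet livers and at 1.52, 1.41 and 1.42 in duckweed livers. CAFS_CommonC_G_012503 was at 3.25, 3.22 and 2.93 in earthworm livers, at 4.32 and 2.71 in mixed-diet livers and at 0.573, 1.15 and 0.616 in duckweed livers. CAFS_CommonC_G_061834 was at 3.32, 2.79 and 2.71 in earthworm livers, at 4.45 and 2.11 in mixed-diet livers and at 1.07, 0.775 and 1.28 in duckweed livers. In these 3 genes mixed 1 was above every library of the single diets and mixed 2 lay in the gap. CAFS_CommonC_G_065862 was at 2.61, 3.16 and 2.18 in earthworm livers, at 2.79 and 0.943 in mixed-diet livers and at 0.747, 0.671 and 0.808 in duckweed livers, with mixed 1 inside the earthworm range.

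CAFS_CommonC_G_035888 was at 3.23, 2.64 and 2.14 scaled FPKM in earthworm livers, at 0.380 and 0.910 in mixed-diet livers and at 0.943, 0.949 and 0.409 in duckweed livers. CAFS_CommonC_G_012017 was at 3.07, 2.23 and 2.54 in earthworm livers, at 0.632 and 0.194 in mixed-diet livers and at 0.767, 0.657 and 0.377 in duckweed livers. Neither mixed library exceeded the highest duckweed value in these genes. The second rests on few reads, 11, 11 and 15 on earthworm, 3 and 1 on the mixed diet, and 5, 4 and 2 on duckweed, so counting error alone is wide for it. Of the 17 genes, 8 had fewer than 20 reads in at least 1 duckweed library.

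**Figure D2:**
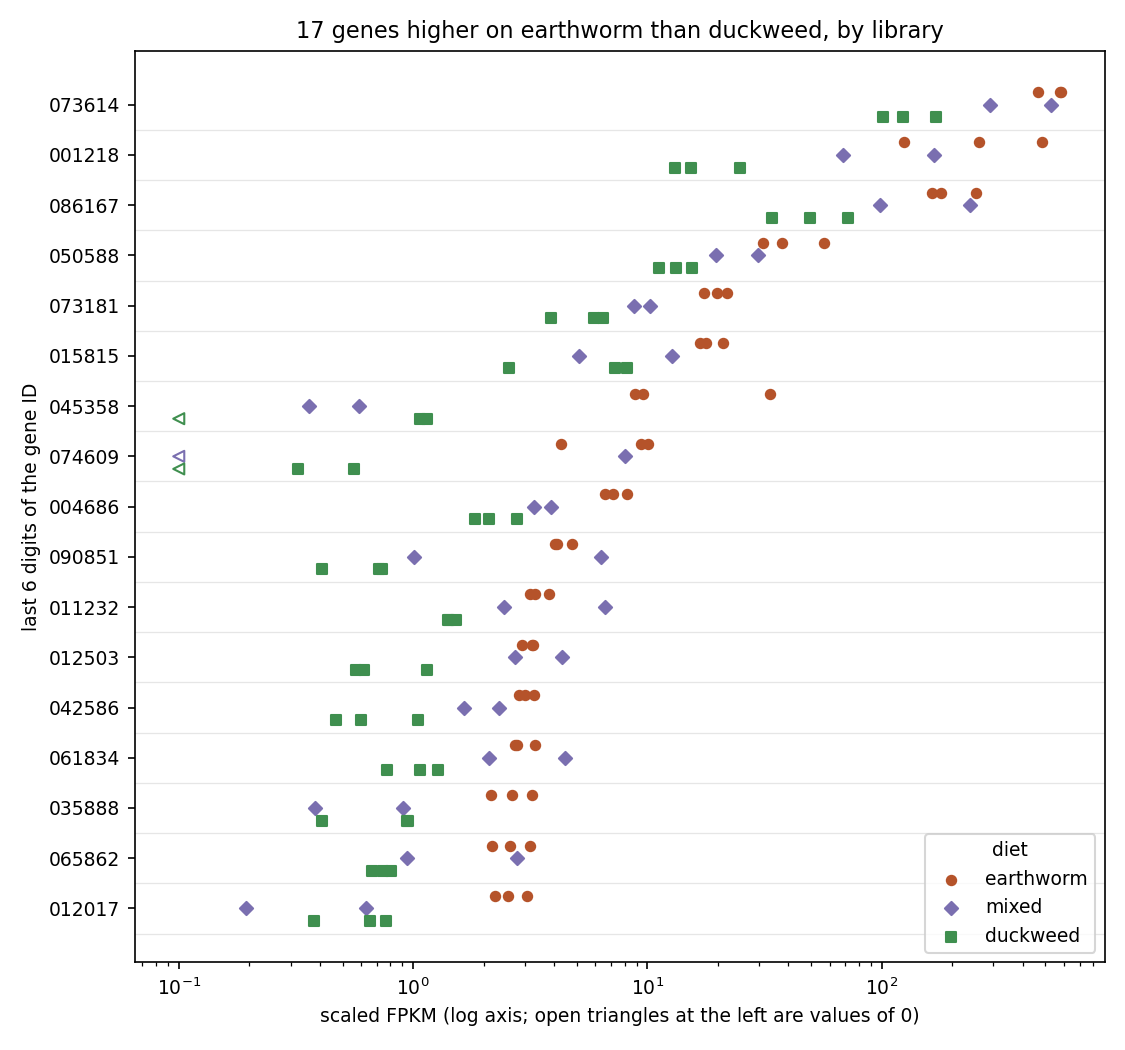
Scaled FPKM (log axis) of each of the 17 genes in the 8 libraries, with earthworm above mixed above duckweed in each row and open triangles for values of 0. The earthworm and duckweed points do not overlap, as the rule asks, while the mixed points lie among the earthworm points, in the gap or among the duckweed points depending on the gene.

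The 17 genes together took a small part of the RNA. They held 920 ± 104 CPM on earthworm (SD, n = 3), 775 and 425 in mixed libraries 1 and 2, and 211 ± 50.9 on duckweed (SD, n = 3). The 3 most abundant genes made up 86.4% ± 3.53 of these reads on earthworm and 81.3% ± 2.62 on duckweed (SD, n = 3 each), so the sum mostly describes those 3. The other 14 genes held 123 ± 20.3 CPM on earthworm (SD, n = 3), 73.0 and 69.3 in mixed libraries 1 and 2, and 38.5 ± 5.22 on duckweed (SD, n = 3). The sums over the 14 genes were close in the 2 mixed libraries, but single genes differed in both directions, with 0 and 97 reads for CAFS_CommonC_G_074609 and 91 and 37 for CAFS_CommonC_G_011232. In the sum of all 17, mixed 1 lay well above mixed 2.

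**Figure D3:**
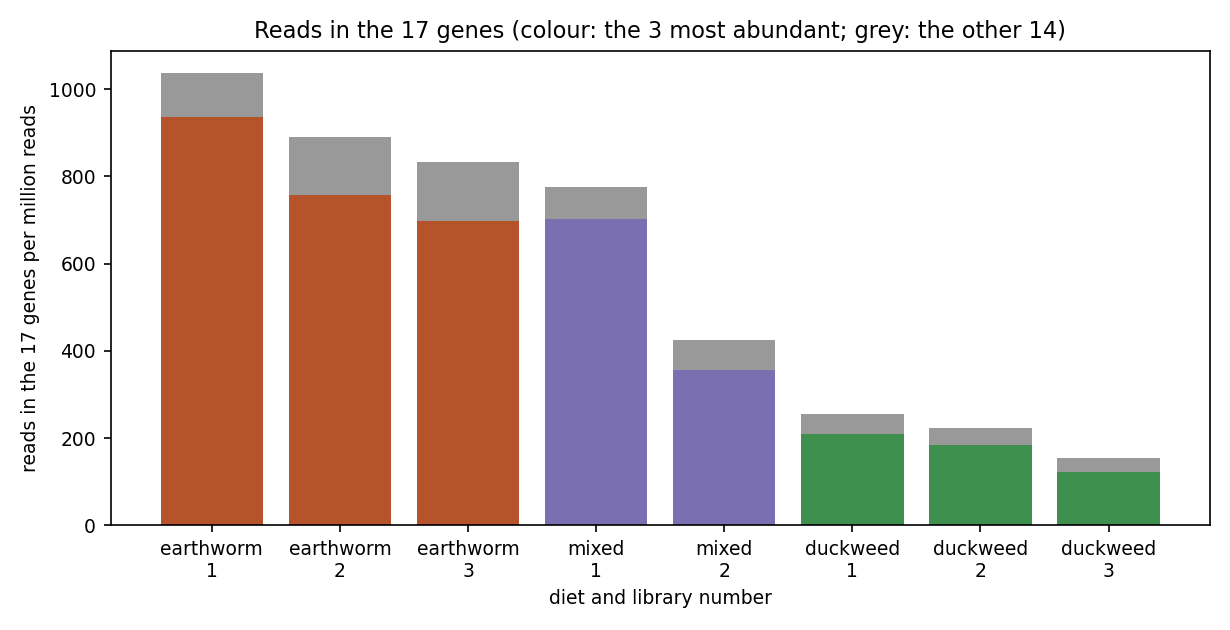
Reads in the 17 genes in CPM in each library, with the 3 most abundant genes in colour and the other 14 in grey. The earthworm bars stand between 834 and 1036, the mixed bars at 775 and 425 and the duckweed bars between 155 and 254.

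A further 3 genes met the fold and the floor but were among the 100 most abundant. CAFS_CommonC_G_010134 was at 8178, 8944 and 3273 scaled FPKM in earthworm livers, at 5666 and 5581 in mixed-diet livers and at 1102, 862 and 788 in duckweed livers. With CAFS_CommonC_G_086170 and CAFS_CommonC_G_031846 it held 0.703% ± 0.188 of reads on earthworm and 0.164% ± 0.0282 on duckweed (SD, n = 3 each), more than all 17 genes, and in all 3 both mixed libraries reached or exceeded the lowest earthworm value.

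The gene models of the 17 were short. Their lengths, recovered from the steps of the FPKM values, had a median of 1096 bases and ran from 434 to 3977, and 14 of the 17 were under the median of 2048 bases over all tested genes. The 25 genes of the mirrored rule had a median of 1800 bases. Short genes collect fewer reads at a given FPKM, and the part of read number in the choice was not tested.

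The mixed libraries were placed between ends that the choice had made high on earthworm and low on duckweed. A library with no part in the fold or the floor can fall between such ends whatever its diet. The counts and positions below are therefore a description. For each gene a mixed library was placed at the earthworm level if it reached the lowest earthworm value, at the duckweed level if it did not exceed the highest duckweed value, and between otherwise. Mixed 1 was at the earthworm level in 7 genes, between in 6 and at the duckweed level in 4. Mixed 2 was at the earthworm level in 2 genes, between in 11 and at the duckweed level in 4. None of the 17 had both mixed libraries at the earthworm level, although all 3 genes removed for their abundance did, 4 had both between, and 3 had both at the duckweed level. In 12 of the 17, or 70.6%, neither mixed library was down at the duckweed level.

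In 7 genes mixed 1 was at the earthworm level with mixed 2 between, namely CAFS_CommonC_G_073614, CAFS_CommonC_G_001218, CAFS_CommonC_G_086167, CAFS_CommonC_G_011232, CAFS_CommonC_G_012503, CAFS_CommonC_G_061834 and CAFS_CommonC_G_065862. The reverse order, with mixed 2 at the earthworm level and mixed 1 lower, occurred in CAFS_CommonC_G_090851 and CAFS_CommonC_G_074609. Mixed 1 exceeded mixed 2 in 13 of the 17 genes, against 50.8% of all tested genes. The mixed libraries differed by a median of 2.25-fold in the 16 genes with reads in both, and by 1.33-fold over the 9411 genes at 2 or more scaled FPKM in every earthworm library. In the 7 genes with an earthworm mean of 10 or more, the median was 1.83-fold, against 1.34-fold over the 3312 genes of that level outside the 100 most abundant. A high earthworm mean does not secure reads in the mixed libraries, as CAFS_CommonC_G_045358, among the 7, had 3 and 2 reads there. Among the mirrored genes with reads in both mixed libraries the median was 2.26-fold. None of these was tested.

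On the scale of log2(scaled FPKM + 1), with the duckweed mean set to 0 and the earthworm mean to 1, the median position over the 17 genes was 0.719 in mixed 1 and 0.497 in mixed 2. Positions ran from -0.32 to 1.91 in mixed 1 and from -0.35 to 1.27 in mixed 2. In 6 genes both mixed libraries lay nearer the earthworm mean, in 5 both lay nearer the duckweed mean, and in the other 6 they were divided. The correlation of the positions of the 2 libraries was 0.22 across the 17 genes, which share both libraries and the same ends of the scale.

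**Figure D4:**
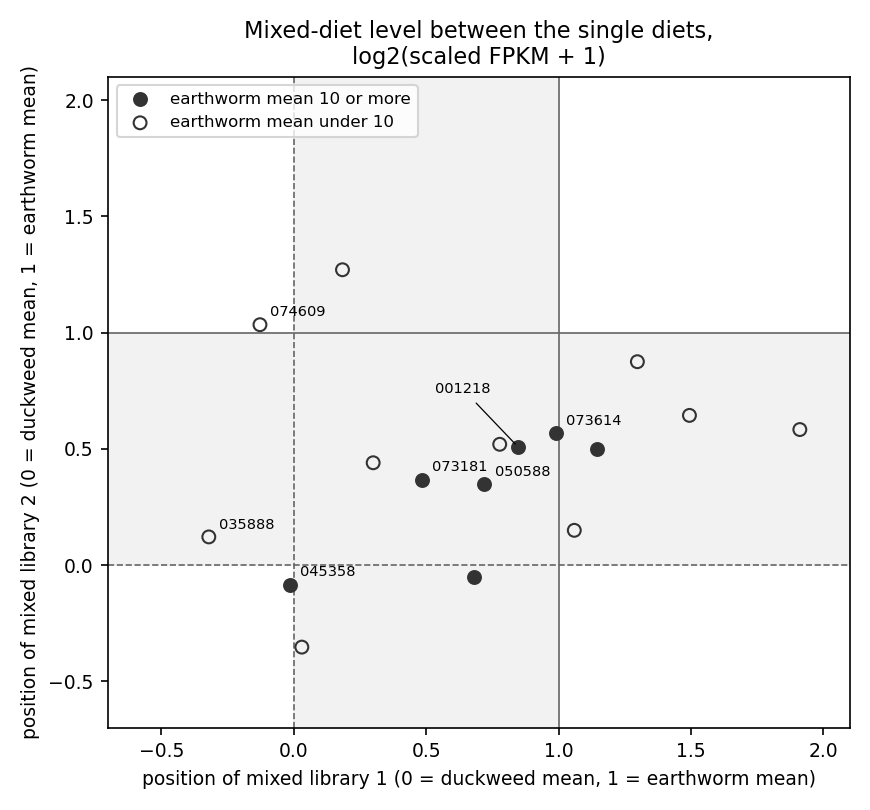
Position of mixed library 1 (x axis) and mixed library 2 (y axis) for the 17 genes on the log2(scaled FPKM + 1) scale, where dashed lines mark the duckweed mean at 0 and solid lines the earthworm mean at 1, with the span between them shaded. Filled points have an earthworm mean of 10 scaled FPKM or more. Many points spread from both libraries near 0 to mixed 1 above 1 with mixed 2 near the middle. In CAFS_CommonC_G_074609 and CAFS_CommonC_G_090851 mixed 2 is instead above 1, at 1.03 and 1.27, with mixed 1 at -0.13 and 0.18.

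The mirrored genes were placed in the same way, now with the earthworm mean at 0 and the duckweed mean at 1. Their median position was 0.116 in mixed 1 and 0.194 in mixed 2, so the medians stood close to earthworm. Positions of single genes ran from -0.43 to 1.49 in mixed 1 and from -0.62 to 1.59 in mixed 2. Both mixed libraries lay nearer earthworm in 18 of these 25 genes and nearer duckweed in 2. Of the 667 other genes whose earthworm libraries all exceeded every duckweed library by any margin, at the same floor, neither mixed library was at the duckweed level in 43.6%. Over all 20105 tested genes, with no floor asked, 5.09% had every earthworm library above every duckweed library. Both mixed libraries were at the earthworm level in 28.8% of the 667, against 0 of the 17, and both between in 31, against 4 of the 17. With the duckweed mean again at 0, the median positions were 0.571 in mixed 1 and 0.583 in mixed 2. In the 519 other genes with duckweed higher in the same way, now with the earthworm mean at 0, they were 0.295 in mixed 1 and 0.394 in mixed 2. The gap between the single diets is narrower in both larger sets, so fewer values can fall between, and the sets were not tested against each other.

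In the fit across all genes, the 17 genes had earthworm minus mixed differences between -0.21 and 3.38 on the log2(scaled FPKM + 1) scale, with a median of 0.72. The median of all 20105 tested genes was 0.0015. The difference was positive in 14 genes and negative in CAFS_CommonC_G_011232, CAFS_CommonC_G_012503 and CAFS_CommonC_G_061834, and all 3 of these turned positive without mixed 1. Over all alternatives run, the sign turned at least once in 8 of the 17 genes. Limma called 0 of the 17 past an adjusted p of 0.05, and 0 of all tested genes in either direction (0%). Adjusted p over the 17 ran from 0.628 to 0.997, and 6 were under an unadjusted p of 0.05, all with earthworm higher, where 3.24% of all tested genes were. The largest difference was that of CAFS_CommonC_G_045358, 3.38 (SE 0.55, limma adjusted p = 0.628), positive under all 19 alternatives run for it.

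The mixed minus duckweed differences of the 17 genes ran from -0.19 to 2.57, with a median of 0.83, against 0.0018 over all tested genes. They were positive in 14 genes and negative in CAFS_CommonC_G_045358, CAFS_CommonC_G_035888 and CAFS_CommonC_G_012017. Each of these 3 turned positive under at least 1 alternative, and over all alternatives the sign turned at least once in 8 of the 17 genes. Limma again called 0 of the 17 and 0 of all tested genes (0%). Adjusted p over the 17 ran from 0.338 to 0.992, and 10 were under an unadjusted p of 0.05, all with the mixed diet higher, where 2.79% of all tested genes were. CAFS_CommonC_G_001218 had the largest of these differences, 2.57 (SE 0.60, limma adjusted p = 0.418). Both comparisons share with the choice the libraries that made the genes high on earthworm and low on duckweed, so positive values and small unadjusted p are partly set by it. Applied to recovered reads, limma-voom called 0 in both as well, with 6 and 10 of the 17 under an unadjusted p of 0.05. Of the 20105 genes in that limma-voom fit, 563 passed this limit with a positive earthworm minus mixed difference and 389 with a negative one. For mixed minus duckweed, 555 passed it with a positive difference and 699 with a negative one.

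The earthworm minus duckweed differences, which the rule fixed in sign, lay between 0.85 and 3.79 with a median of 1.55. In the same fit limma called 0 of 20105 genes in either direction (0%), with 507 higher and 459 lower at an unadjusted p under 0.05, and limma-voom called 0 with 422 and 445.

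How many genes met the rule depended on single libraries. With the scaling kept, leaving a library out of the choice can only add genes. The 17 therefore stayed in every such choice, so the share also met in the left-out library is only 17 over the number taken. Leaving earthworm 3 out took 176 genes, of which earthworm 3 itself met the rule in 17, or 9.66%. In 79 of the 176, or 44.9%, earthworm 3 exceeded every duckweed library. The choice took 38 genes without earthworm 1 and 45 without earthworm 2, of which 44.7% and 37.8% also met the rule in the library left out. Earthworm 1 and earthworm 2 exceeded every duckweed library in 76.3% and 73.3% of these. The choice had taken genes low in the duckweed libraries, so such shares are partly set by it. The same shares over all genes were not computed. Without duckweed libraries 1, 2 and 3 in turn it took 56, 45 and 37 genes. Earthworm 3 was the lowest earthworm library in 10 of the 17 genes, and earthworm 1 the highest in 9. Over the 9411 genes at 2 or more scaled FPKM in every earthworm library, earthworm 1 was the highest in 40.5%. The share with earthworm 3 as the lowest was not computed over those genes, so its 10 of the 17 stand without a comparison. The mirrored rule moved likewise, to 140 genes without earthworm 3 and to 102 without duckweed 1. Without earthworm 3, limma called 12 genes between earthworm and duckweed, 9 higher and 3 lower on earthworm, of the 19206 tested there. Of the 17 genes, 1 was among them, CAFS_CommonC_G_001218, at a difference of 4.29 (limma adjusted p = 0.0403). The libraries compared there had also chosen this gene.

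**Figure D5:**
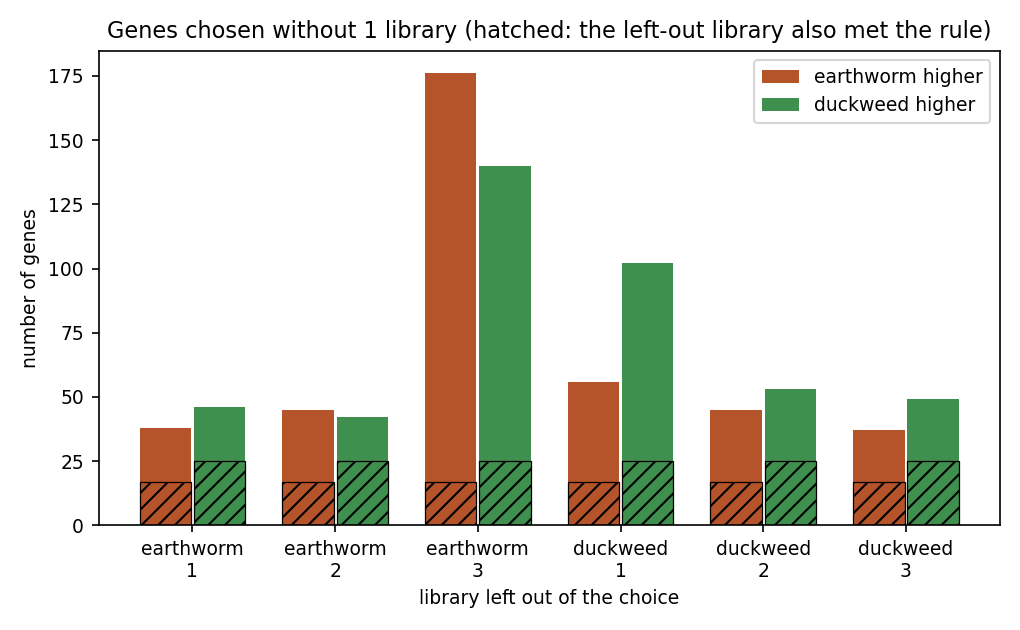
Number of genes that met the rule (earthworm higher) or its mirror (duckweed higher) when 1 library was left out of the choice. Hatched parts are genes in which the left-out library also met it, which by construction are the same 17 and 25 genes throughout. The bars reach 176 and 140 without earthworm 3.

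The library labelled mixed 3 held these genes at quite other levels. In FPKM as deposited it was above all 8 other libraries in 6 of the 17 genes, below all 8 in 5 and within their range in 6, against 58.4%, 10.4% and 31.2% of all tested genes. CAFS_CommonC_G_073614, the most abundant of the 17, had 1 read there and CAFS_CommonC_G_001218 had 10, while CAFS_CommonC_G_050588 was at 1175 FPKM. With this library in the fit, the mixed minus duckweed difference of CAFS_CommonC_G_073614 turned to -1.27, against 1.60 without it.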

How the data were processed

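Per the file headers, each deposited file lists FPKM per gene ID for 1 library, 9 in all. Per the submitters' processing notes, HTSeq 0.6.0 was among the tools. Aligner, build, annotation and strand: not given in the sources used here. Diet and replicate number come from the titles, per the labels.

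FPKM of 8 libraries (all but that labelled mixed 3) was divided by the library's median over 11584 genes at 1 FPKM or more in all 8, times the mean of these medians. Totals, gene lengths (searched from 60 to 40000 bases) and reads were recovered from the whole-read steps of FPKM. The limit for a whole read was 2e-05 reads, and wider in proportion to the read number at high counts. Recovered reads summed to 99.9% or more of each total. No 2 replicates agreed within counting noise (chi-square over its degrees of freedom was 41.9 or more).

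limma 3.58.1 in R 4.3.3 fitted log2(scaled FPKM + 1), 1 mean per diet over 8 libraries, for genes reaching 1 FPKM in 3 or more (trend and robust options, two-sided, Benjamini-Hochberg over all 20105 genes, threshold 0.05). No p is given over the genes as a set.

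The genes and tests were chosen with earlier results of these data known. The naming rule took, in each of several classes, the 2 genes with the highest earthworm mean or the largest ratio; it named 7 genes, and no gene fell in the classes at 0 on all duckweed libraries or with both mixed libraries at the earthworm level. The other IDs were named after their values were seen. Marker lists were not used, as no ID has a name. Alternatives were other scalings (none, median ratio, trimmed mean with 30% of ratios and 5% of levels trimmed), all 9 libraries, each library left out, other folds and floors, a pseudocount of 0.1, no filter, a replicate block, only the groups compared, no robust option and, added after seeing the data, limma-voom and the block with 9 libraries.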

Additional observations from a re-analysis of the deposited data

Results flagged for a closer look

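In the library labelled mixed 3, which the choice and the main fit leave out, 6 of the 17 genes were above every other library in FPKM as deposited. CAFS_CommonC_G_050588 was at 1175 FPKM (8271 reads), 21.5 times the highest of the other 8 libraries. CAFS_CommonC_G_086167 was at 615 FPKM, 2.89 times the highest of the others. CAFS_CommonC_G_012017 was at 8.42 FPKM and CAFS_CommonC_G_012503 at 7.77 FPKM, 3.06 and 2.01 times the highest. CAFS_CommonC_G_042586 was at 5.79 FPKM and CAFS_CommonC_G_035888 at 2.61 FPKM, 1.77 and 1.03 times the highest. Over all tested genes this library was above the other 8 in 58.4%, so such values are common in it.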

How the results depend on the processing

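The rule took 17 genes as reported, 11 in FPKM as deposited, 71 and 4 at a fold of 1.5 and 3, and 28 and 8 at a floor of 1 and 5 scaled FPKM. Without each library in turn, rescaled, it took 17 to 176. The mean of the median positions of the mixed libraries, 0.608, was 0.330 in FPKM as deposited, 0.428 at a fold of 3 and 0.434 on a linear scale, and 0.388 to 0.779 without each library. The deposited scale, the fold of 3 and the left-out libraries also change which genes are chosen. For the same 17 genes it was 0.561 in FPKM as deposited and 0.497 to 0.722 without each library, with both of these ends from leaving out a mixed library. The deposited scale shifts the median earthworm minus duckweed difference of all genes to -0.15. The share of genes with neither mixed library at the duckweed level ran from 50% to 80.4% without each library. Calls ran from 0 to 12 between earthworm and duckweed, 0 to 1 between earthworm and mixed, and 0 to 1 between mixed and duckweed without each library, and were 0 under every other alternative.

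No same-numbered pair of libraries deviated together from its diet means (correlations of -0.41 to -0.0088), and no library correlated best with its own number, so the numbers were not taken as pairing. Some libraries of different number and diet did deviate together. Duckweed 1 and earthworm 3 correlated at 0.347, and duckweed 3 correlated with earthworm 1 and earthworm 2 at 0.240 and 0.231. Deviations within a diet sum to 0 for each gene, so these correlations depend on each other. What these libraries share was not tested. The replicate block gave 0 calls in each comparison. With all 9 libraries, with or without the block, the sign turned in 3 of the 17 genes for earthworm minus mixed and in 5 for mixed minus duckweed. Among the genes named by the rule, the difference turned to -0.78 for CAFS_CommonC_G_050588 (earthworm minus mixed), and to -0.44 for CAFS_CommonC_G_073181, 0.055 for CAFS_CommonC_G_035888 and -1.27 for CAFS_CommonC_G_073614 (mixed minus duckweed). Without each library in turn, earthworm minus mixed ran from -0.095 (without mixed 1) to 3.08 for CAFS_CommonC_G_074609. Mixed minus duckweed ran from -0.35 (without mixed 2) to 2.84 for CAFS_CommonC_G_074609 and from -0.34 to 0.13 (without mixed 1) for CAFS_CommonC_G_035888. For CAFS_CommonC_G_045358 it ran from -0.51 to 0.030 (without duckweed 1), with 0.0055 without duckweed 2, and was 0.099 with a pseudocount of 0.1 and 0.030 with limma-voom. The cause was not tested. In the 7 genes named by the rule, 383 of these values kept their direction and side of the threshold and 15 turned. The remaining 1, earthworm minus duckweed for CAFS_CommonC_G_001218 without earthworm 3, kept its direction and passed the threshold (limma adjusted p = 0.0403). Few reads in low genes limit these values.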
